A study of Mus musculus with 6 samples.

Results

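Gene-proximal peaks at some distance from the promoter were examined by ATAC-seq in muscle stem cells (MuSCs) that were freshly isolated from *Taf4a* sKO mice and their controls. A distal peak was defined as a peak annotated to a protein-coding gene whose centre lay 3000 bp or more from the start site of that gene. This rule selected 8361 of the 75412 peaks, at 5914 genes, and used no signal value. The annotation assigned each peak to the nearest gene within a limited window, so that the most remote distal peak lay 10938 bp from its start site. The label of a promoter-distant region held for most peaks but not for all of them, since distance was measured to 1 start site per gene. By the GENCODE annotation, 1482 distal peaks had their centre within 1000 bp of some annotated transcript start, and 827 of the 8361 were within 1000 bp of another start of their own gene. The remaining peaks fell into introns (3277), exons (699) or intergenic sequence (2903). These features were taken from any annotated gene, so that an exonic or intronic peak need not lie within the gene to which it was assigned. This holds for all peaks named below.

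MuSCs of C57BL/6 background were sorted from limb and trunk muscle of adult mice, either by integrin alpha-7 or by the *Pax7* zsGreen reporter, after depletion of SCA1, CD45 and CD31 positive cells. *Taf4a* sKO animals carried Pax7CRE ERT and Taf4a flox/flox alleles and had received tamoxifen, so that the deletion was directed to cells in which the *Pax7* promoter drives Cre. By the study's methods, controls were littermates that carried Taf4a flox/flox alleles as well, either without Cre or with Cre, and a *Pax7* zsGreen reporter could be present in both groups. Which of these alleles and which gate each library had, and whether controls received tamoxifen, is not given in the sources used here. Each genotype had 3 libraries, described as biological replicates, and the deposited values are read counts per peak that the authors normalized for sequencing depth and rounded.

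ATAC-seq measures where the Tn5 transposase can insert into DNA, and thereby the accessibility of chromatin. Promoters of active genes are kept open by the general transcription machinery, to which TFIID with its subunit TAF4A belongs, whereas peaks away from the start site often are enhancers. Enhancers are opened by sequence-specific factors such as AP-1 (FOS and JUN proteins), which responds to activation signals, the myogenic bHLH factors, which bind E-boxes, and TEAD proteins. In MuSCs, exit from quiescence is known to remodel such elements, and the comparison addressed whether loss of *Taf4a* moved distal peaks together with, or apart from, the promoter of the same gene.

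Sequences of 7 distal peaks are given first because they carry the 2 motifs, of 5 searched, whose frequency differed most between higher and lower distal peaks. They were picked after their values had been seen. Each is the central 300 bp of the peak, or the whole peak where that is narrower (*Foxs1*, 248 bp), in mm10 (GRCm38, sequence from RefSeq). Capitals mark the AP-1 letters TGANTCA or the E-box letters CAGCTG on either strand. The first 3 were higher in *Taf4a* sKO MuSCs and hold AP-1 letters, the next 3 were lower and hold E-box letters, and *Klf4* holds AP-1 letters but was lower. Both matches in *Lif* have A or T as the middle base, whereas *Foxs1*, *Rbpj* and *Klf4* hold a match with C or G. The *Foxs1*, *Rbpj*, *Lfng* and *Klf4* windows were intergenic and the *Lif*, *Sorcs2* and *Myl1* windows intronic.
Foxs1 distal peak, chr2:152927483-152927730, plus strand: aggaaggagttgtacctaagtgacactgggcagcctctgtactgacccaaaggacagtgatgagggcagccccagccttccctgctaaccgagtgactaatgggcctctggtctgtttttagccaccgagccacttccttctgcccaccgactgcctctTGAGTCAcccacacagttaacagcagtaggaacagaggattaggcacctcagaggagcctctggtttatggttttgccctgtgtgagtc
Lif distal peak, chr11:4263024-4263323, plus strand: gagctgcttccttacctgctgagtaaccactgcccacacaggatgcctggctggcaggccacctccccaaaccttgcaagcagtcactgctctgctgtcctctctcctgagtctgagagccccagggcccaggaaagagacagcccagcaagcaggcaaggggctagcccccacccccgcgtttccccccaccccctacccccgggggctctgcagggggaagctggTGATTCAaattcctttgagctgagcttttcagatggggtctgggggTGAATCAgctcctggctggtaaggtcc
Rbpj distal peak, chr5:53457341-53457640, plus strand: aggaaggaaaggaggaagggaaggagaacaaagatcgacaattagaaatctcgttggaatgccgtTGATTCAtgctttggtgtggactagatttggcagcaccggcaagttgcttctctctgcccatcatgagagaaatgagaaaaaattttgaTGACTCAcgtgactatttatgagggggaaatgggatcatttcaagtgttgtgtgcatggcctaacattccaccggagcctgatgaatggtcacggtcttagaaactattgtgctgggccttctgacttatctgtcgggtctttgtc
Sorcs2 distal peak, chr5:36390313-36390612, plus strand: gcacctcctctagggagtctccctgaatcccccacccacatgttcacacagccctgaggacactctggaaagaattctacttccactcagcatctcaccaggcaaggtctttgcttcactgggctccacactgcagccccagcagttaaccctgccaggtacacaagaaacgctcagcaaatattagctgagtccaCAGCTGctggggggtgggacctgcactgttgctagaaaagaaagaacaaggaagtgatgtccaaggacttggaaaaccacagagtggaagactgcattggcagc
Lfng distal peak, chr5:140599989-140600288, plus strand: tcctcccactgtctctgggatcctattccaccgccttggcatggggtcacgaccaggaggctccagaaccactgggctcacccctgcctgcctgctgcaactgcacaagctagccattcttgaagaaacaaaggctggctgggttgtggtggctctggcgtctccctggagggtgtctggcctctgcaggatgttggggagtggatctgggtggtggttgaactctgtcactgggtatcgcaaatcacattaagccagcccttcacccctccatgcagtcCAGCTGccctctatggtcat
Myl1 distal peak, chr1:66940963-66941262, plus strand: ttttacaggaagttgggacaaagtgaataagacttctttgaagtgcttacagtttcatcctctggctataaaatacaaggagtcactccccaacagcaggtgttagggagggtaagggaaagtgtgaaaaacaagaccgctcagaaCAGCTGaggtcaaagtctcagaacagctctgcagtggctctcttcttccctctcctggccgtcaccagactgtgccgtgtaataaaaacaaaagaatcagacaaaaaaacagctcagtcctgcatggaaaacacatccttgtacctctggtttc
Klf4 distal peak, chr4:55526010-55526309, plus strand: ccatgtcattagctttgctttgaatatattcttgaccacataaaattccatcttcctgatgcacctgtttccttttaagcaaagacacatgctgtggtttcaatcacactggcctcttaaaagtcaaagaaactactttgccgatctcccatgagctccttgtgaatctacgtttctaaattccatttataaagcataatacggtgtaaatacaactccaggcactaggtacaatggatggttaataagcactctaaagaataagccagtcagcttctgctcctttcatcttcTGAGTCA

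The genotype labels were checked at the deleted gene. The peak over exon 12 of *Taf4a* (listed as Taf4, chr2:179922849-179923263), one of the floxed exons, had values of 65, 78 and 137 in control and 44, 22 and 25 in *Taf4a* sKO libraries, a log2 change of -1.58 ± 0.30 (SE, limma, adjusted p = 0.00034). All sKO values were below all control values, but signal remained in each sKO library. A peak over exon 7, which is not floxed, was also lower, with 253, 249 and 302 against 140, 145 and 165 (-0.83 ± 0.15, limma, adjusted p = 0.00014). The promoter peak of *Taf4a* had 2305, 1998 and 2375 in control against 2095, 2124 and 2104 in sKO libraries, with overlapping values (limma, adjusted p = 0.59). The distal peak of the gene, an intergenic peak 3331 bp upstream (chr2:179979788-179980166), was higher in sKO MuSCs, with 488, 437 and 653 in control and 831, 695 and 759 in sKO libraries (log2 change 0.55 ± 0.14, limma, adjusted p = 0.003).

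Markers of MuSCs and of other cell types were examined next, because distal peaks of such genes can move with the make-up of the sort. Marker sums are given on the deposited scaling, and whether they overlap can change under another scaling. Counts of called marker peaks are to be read against all peaks, of which 28.0% were higher and 13.9% lower. All 11 MuSC marker genes had an annotated peak, with *Cdh15* the highest per kb. Of their 18 distal peaks, 9 were higher and 3 lower. Summed over the 18 distal peaks of these genes the value was 7748, 6667 and 8282 in control and 10008, 9840 and 9750 in sKO libraries, while the sum over their nearest peaks was 18717, 16047 and 19248 against 18205, 17167 and 17200. On the deposited scaling the distal sums thus did not overlap between genotypes, and the sums at the nearest peaks did. Divided by the library totals given below, the nearest sums would not overlap either and would be lower in the sKO libraries. Of 14 endothelial markers, 10 had an annotated peak and *Emcn*, *Sox17*, *Tie1* and *Vwf* had none. Their 9 distal peaks summed to 1330, 1390 and 1528 in control and 2616, 2561 and 2751 in sKO libraries, 5 of them higher and 1 lower, and their nearest peaks to 3450, 3470 and 4237 against 5247, 5297 and 5382, with *Tek* the highest per kb. Both endothelial sums were higher in every sKO library although CD31 positive cells had been depleted. They are not separate observations, since 3 peaks of genes without a nearer peak count in both, among them an *Egfl7* peak that differed most between genotypes. Without this peak, left out after its values were seen, the distal sums were 884, 826 and 880 against 1137, 1040 and 1089 and the nearest sums 3004, 2906 and 3589 against 3768, 3776 and 3720, which still did not overlap. The part of these differences in the other results was not tested. In bulk ATAC-seq, a change of accessibility per cell and a change in the share of a cell type cannot be told apart.

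Among 14 haematopoietic markers 7 had no annotated peak, *Ptprc*, *Itgam* and *Lyz2* among them, and 4 distal peaks of the others summed to 3723, 3520 and 4078 in control and 4248, 3931 and 3973 in sKO libraries, with overlap. The nearest peaks of the 7 genes, with *Vav1* the highest per kb, summed to 4161, 4070 and 4644 against 5256, 4890 and 4984, higher in every sKO library although CD45 positive cells had been depleted. Without a *Csf1r* peak that differed most, left out after its values were seen, these nearest sums were 3969, 3821 and 4347 against 4795, 4495 and 4477. They still did not overlap on the deposited scaling. The relative library totals over all peaks were 0.9317, 0.8701 and 1.057 in control and 1.094, 1.029 and 1.036 in sKO libraries. Divided by these totals, the sums without *Csf1r* would overlap. The 16 distal peaks of fibro-adipogenic and mesenchymal markers summed to 7609, 6985 and 8345 against 10007, 9450 and 9207 (7 higher, 1 lower; *Col1a1* highest per kb; *Ly6a* and *Rgs5* without a peak), and their nearest peaks to 4103, 3735 and 4446 against 5176, 4859 and 4942, so that neither sum overlapped. The part of these differences in the other results was not tested either. Those of Schwann and glial markers (5 peaks, 1 higher; *Cdh19* and *S100b* without a peak) summed to 924, 927 and 1132 against 1155, 902 and 950. The 5 distal peaks of myofibre markers, led by *Mylpf* at its nearest peak, were the only marker group with a lower distal sum in all sKO libraries, at 1366, 1440 and 1707 in control and 1291, 1138 and 1065 in sKO libraries (0 higher, 2 lower). The nearest sums of the glial and of the myofibre markers overlapped between genotypes on the deposited scaling. Divided by the library totals, those of the glial markers would not overlap and would be lower in the sKO libraries.

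Distal peaks were open at lower levels than promoters. The median control value of a distal peak was 185, or 361 per kb of peak, against 1240 and 1070 per kb for peaks centred under 1000 bp from the start site of a protein-coding gene (promoter peaks). Distal peaks were also narrower (median 527 bp against 1120 bp), lower in GC content (51.7% against 66.0% of the central 300 bp) and poorer in CpG (5 against 26). They held 8.93% ± 0.0259 (SD, n = 3) of the summed value of a control library and 9.01% ± 0.0586 (SD, n = 3) of that of a sKO library (8.90%, 8.92% and 8.95% against 9.05%, 8.95% and 9.05%), with overlap between genotypes (two-sided exact permutation test, p = 0.2, where 3 against 3 libraries cannot go below 0.1). Promoter peaks held 45.8% ± 0.615 in control and 43.5% ± 0.266 in sKO libraries (n = 3 each). The ratio of the distal to the promoter sum was 0.191, 0.195 and 0.198 in control and 0.209, 0.204 and 0.209 in sKO libraries, and did not overlap (two-sided exact permutation test, p = 0.1). A common factor per library cancels in this ratio.

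Of the 8360 distal peaks with a mean value above 10, 2223 (26.6%) rose and 1221 (14.6%) fell in the *Taf4a* sKO libraries at an adjusted p under 0.05 (limma on log2(value + 1), adjusted over all 75384 peaks tested). Over all peaks these shares were 28.0% and 13.9%, so that distal peaks changed about as often as the average peak. Promoter peaks had smaller shares, with 1209 of 12049 higher and 683 (5.67%) lower, and the spread of log2 changes was wider in distal peaks (interquartile range 0.67) than in promoter peaks (0.21). These differences in share were not tested, because peaks of 1 library are not independent. By the thresholds of the study's methods, a log2 ratio of group means beyond 1 at a mean above 10, 478 distal peaks were gained (5.72%, against 7.02% of all peaks) and 427 lost (5.11%, against 5.36%).

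The balance of rising and falling distal peaks depended on the scaling. With the deposited scaling, the median log2 change was 0.08 for distal peaks and 0.11 for all peaks, and 64.5% of the called distal peaks were higher. Rescaling by median-of-ratios factors, by the total over all peaks or by quantile normalization moved the median of all peaks by -0.12, -0.15 and -0.13, and left 50.0%, 45.3% and 46.5% of the called distal peaks in the higher direction. Relative to the median of all peaks, distal peaks were at -0.03, -0.03, -0.03 and -0.05 under the 4 scalings. A common core was called under each of them, with 1767 distal peaks higher and 1194 lower throughout and 0 that changed direction. Shifts of this size could hardly turn a call into its opposite, so that the 0 carries little information.

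The share of changed peaks rose strongly with distance close to the start site and little beyond 3000 bp. It went from 9.07% higher and 5.08% lower within 500 bp to 26.7% higher and 11.8% lower between 2000 and 3000 bp, and the next peaks, from 3000 to 4000 bp, had 25.8% and 12.7%. Beyond this border the higher share stayed between 25.1% and 28.6% in every 1-kb bin up to 11 kb, with medians of 0.06 to 0.09. The lower share was 12.7% and 13.2% in the bins up to 5 kb and 14.6% to 16.2% in the later ones. Upstream (3654) and downstream (4707) distal peaks were alike in their shares, 25.8% and 27.2% higher and 14.2% and 14.9% lower. The distance plot shows the shares per bin.

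**Figure D1:**
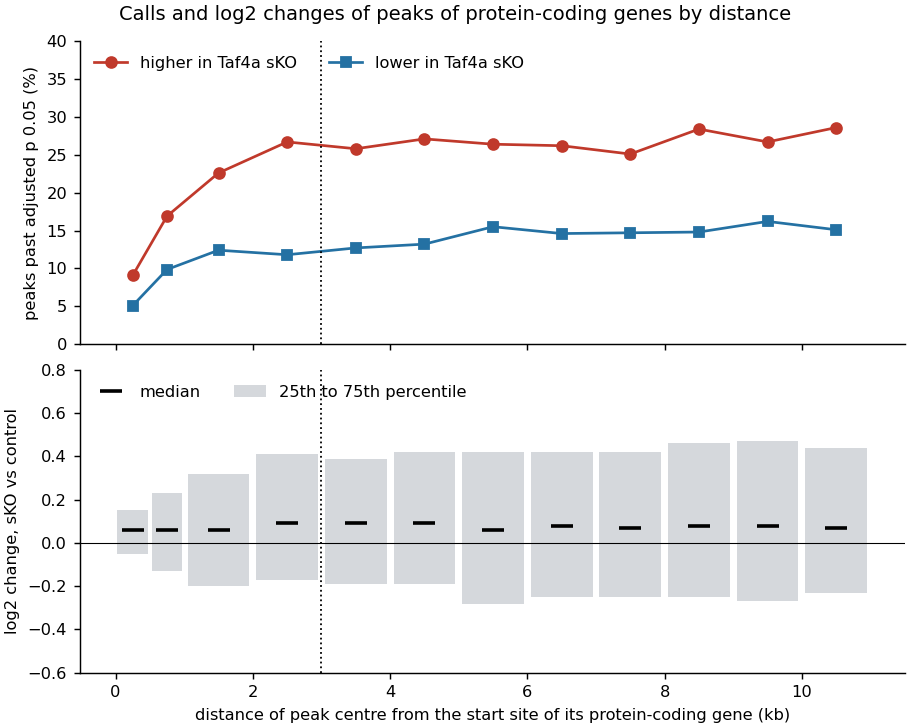
Upper panel: share of tested peaks (%, y axis) that were higher (circles) or lower (squares) in Taf4a sKO MuSCs by distance of the peak centre from the start site (kb, x axis). Lower panel: median (line) and 25th to 75th percentile (bar) of the log2 change in the same bins; the dotted line marks 3 kb, beyond which 25.1% to 28.6% of the peaks were higher.

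The annotated feature at the peak centre, of whichever gene, separated distal peaks more than distance did. Intronic distal peaks had 31.9% higher and 15.4% lower with a median log2 change of 0.13, and intergenic ones 26.2% and 13.7% with a median of 0.08. Exonic distal peaks had 17.0% higher and 20.6% lower with a median of -0.07, and those near an annotated transcript start 19.9% and 11.7% with a median of 0.05. These balances moved with the scaling. With median-of-ratios factors, totals and quantiles, exonic peaks had medians of -0.18, -0.22 and -0.19, but peaks near a transcript start then also had more lower than higher calls (18.1% and 24.9%, 16.4% and 30.9%, 16.5% and 31.3% higher and lower), and so did intergenic peaks with totals (638 higher and 734 lower) and quantiles (669 and 696). Exonic peaks had the lowest and intronic peaks the highest median of the 4 positions under each scaling. Exons made up 5.35% of the higher, 11.8% of the lower and 8.87% of the uncalled distal peaks, and introns 47.1%, 41.3% and 35.1%.

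Signal strength, taken as the mean over all libraries, went along with direction. This is partly built in, because that mean includes the sKO libraries and moves with the change itself. By control values alone, the median was 205 in higher and 148 in lower distal peaks. When distal peaks were divided into 4 signal classes of equal size, in the class with the lowest mean values (11.2 to 89.7), 16.4% were higher and 23.1% lower, and the median log2 change was -0.14. In the class with the highest mean values (486 to 10100), 35.2% were higher and 5.69% lower, with a median of 0.17. The balance in the highest class became 34.1% higher and 17.5% lower, 31.4% and 22.5%, and 28.9% and 26.5% when rescaled by median-of-ratios factors, totals and quantiles. The medians of the lowest class were then -0.25, -0.28 and -0.13 and those of the highest class 0.05, 0.02 and 0.00, so that the gap was smallest under quantile normalization.

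The 5 distal peaks with the strongest evidence for a rise lay near *Nat8f2*, *Foxs1*, *Lhfpl2*, *Lif* and *Tm4sf1*. The *Nat8f2* peak, downstream of a gene of the NAT8 family of acetyltransferases (chr6:85864728-85865927, intergenic), had values of 221, 180 and 234 in control and 1431, 1162 and 1142 in sKO libraries (log2 change 2.55 ± 0.14 SE, limma, adjusted p = 1.3e-11). At *Foxs1*, which encodes a forkhead factor, the peak whose sequence is given above rose from 36, 42 and 39 to 251, 288 and 378 (2.92 ± 0.19, adjusted p = 2e-10), a 7.57-fold increase. The *Lif* peak, in an intron 5617 bp downstream of a start site of this IL-6 family cytokine, had 113, 123 and 139 against 495, 574 and 539 (2.09 ± 0.14, adjusted p = 6.4e-10). In each of these peaks the lowest sKO library was above the highest control library, which was a condition of their choice and no separate observation. *Lhfpl2*, a tetraspan membrane protein gene, had an upstream intergenic peak with 183, 188 and 200 against 688, 748 and 843 (chr13:94049998-94051243, 1.99 ± 0.13). The *Tm4sf1* peak (chr3:57294549-57295605) was 48 bp from another start of this membrane protein gene, and thus a promoter by annotation, with 296, 268 and 334 against 1117, 1056 and 963 (1.80 ± 0.13, adjusted p = 7e-10).

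Falls reached larger sizes than rises. The largest was at *Smyd4*, a SMYD family methyltransferase gene, where an intronic peak 4200 bp downstream of the start site (chr11:75352339-75352927) had 504, 509 and 753 in control but 19, 22 and 31 in sKO libraries (log2 change -4.56 ± 0.20 SE, limma, adjusted p = 5.8e-12), a 23.6-fold decrease. The peak 7660 bp upstream of *Il12b*, the gene of the subunit shared by IL-12 and IL-23 (chr11:44391755-44393051, intergenic), had 465, 348 and 388 against 53, 49 and 67 (-2.81 ± 0.17, adjusted p = 1.2e-10). An intronic peak of the sorting receptor gene *Sorcs2* (chr5:36389970-36390955) fell from 306, 273 and 240 to 49, 36 and 49 (-2.59 ± 0.19, adjusted p = 1e-09). All sKO libraries lay below all control libraries in these 3 peaks, which again was a condition of their choice. The intergenic peaks near the olfactory receptor gene *Olfr527* (chr7:140329560-140330341) and upstream of the ciliary gene *Drc7* (chr8:95047193-95048518) had 306, 307 and 404 against 51, 69 and 59, and 345, 309 and 496 against 68, 71 and 59. Neither of these genes had a peak closer to its start site, and the *Drc7* peak lay 1874 bp from the start of another transcript.

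Each distal peak was then set against the peak of the same gene nearest to its start site. Such a nearer peak existed for 7045 distal peaks, 7044 of which were tested, and 1316 distal peaks were themselves the nearest peak of their gene. The 7044 pairs shared 4883 nearest peaks, so that pairs of 1 gene are not independent, and in 83.2% of pairs the nearest peak was within 1000 bp of the start site. The nearest peaks had a median control value of 1070 against 190 for the distal peaks of the pairs (931 and 376 per kb), and in 20.8% of pairs the distal peak was the higher one in control. Nearest peaks were called less often, 14.6% higher and 6.16% lower, and their log2 changes spread less (interquartile range 0.24 against 0.68).

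Most changed distal peaks had a nearest peak without a call. Of the 1966 higher distal peaks in pairs, 495 (25.2%) had a nearest peak that was also higher, 51 (2.59%) one that was lower and 1420 (72.2%) one that was not called. Of the 995 lower distal peaks, 142 (14.3%) were paired with a lower, 72 (7.24%) with a higher and 781 (78.5%) with an uncalled nearest peak. Among the 4083 uncalled distal peaks, 13.7% of nearest peaks were higher and 5.80% lower. Across the 7044 pairs, the log2 changes of both peaks had a Pearson r of 0.270 and a Spearman rho of 0.248, given as a description because the peaks share libraries and depth, and r lay between 0.210 and 0.342 in the 1-kb distance bins.

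A nearest peak without a call is not an unchanged one, so the difference itself was tested as the log2 ratio of distal to nearest peak within each library. This ratio does not depend on a common factor of a library. It was higher in sKO MuSCs for 1694 pairs (24.0%, against 23.5% of all 13874 pairs of a peak with a nearer peak of the same gene) and lower for 1455 (20.7%, against 19.9%) at an adjusted p under 0.05. The median log2 change of the ratio was 0.01, so that rises and falls against the nearest peak were nearly balanced. Of the 3149 called ratios, 1860 came with a call at the distal peak but not at the nearest peak, 422 with a call at the nearest peak alone, 378 with calls at both and 489 with neither. The scatter of both changes shows that the called ratios lie mostly along the axis of the distal peak.

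**Figure D2:**
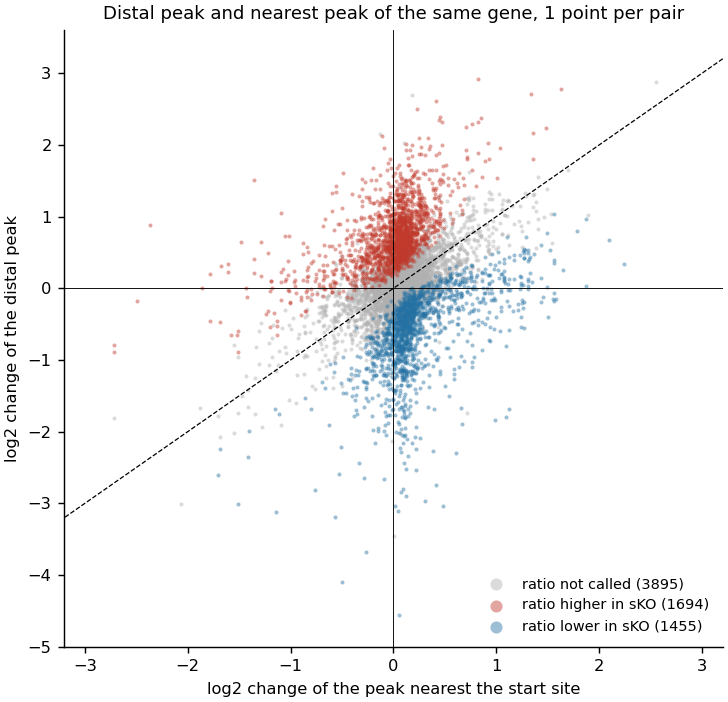
Log2 change (Taf4a sKO against control) of the distal peak (y axis) against that of the nearest peak of the same gene (x axis) for 7044 pairs, with red and blue points for pairs whose ratio was higher (1694) or lower (1455) and grey points for the rest. The dashed line marks equal change; the cloud is taller than wide, with an interquartile range of 0.68 on the y axis and 0.24 for the nearest peaks.

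The rises of the ratio with the strongest evidence were at *Arntl*, *Smad7*, *Tle3*, *Ier5* and *Slc38a1*. At *Arntl*, the gene of the clock factor BMAL1, an intronic peak 9248 bp from the start site (chr7:113216136-113217289) had 370, 354 and 475 in control and 1048, 1029 and 1080 in sKO libraries, whereas the nearest peak had 4301, 3905 and 5065 against 5587, 4910 and 5095 (log2 change of the ratio 1.17 ± 0.08 SE, limma, adjusted p = 8.8e-07). *Tle3*, a Groucho family corepressor gene, had an intronic peak (chr9:61378145-61379076) with 682, 755 and 941 against 2402, 2046 and 2191, beside a nearest peak with 1874, 1652 and 2007 against 2029, 2003 and 1957 (1.37 ± 0.10, adjusted p = 1.8e-06). In control the distal peak of *Tle3* was below the nearest peak, and in sKO MuSCs it was above it in each library. An intronic peak of *Slc38a1*, which encodes a neutral amino acid transporter (chr15:96638087-96638611), rose from 361, 319 and 443 to 1026, 1054 and 997 (ratio 1.27 ± 0.10). For *Smad7*, an inhibitor of TGF-beta signalling, the upstream peak had 288, 240 and 326 against 713, 623 and 614 and the nearest peak 3765, 3258 and 4124 against 4324, 3678 and 3805 (ratio 1.11 ± 0.08). The peak 9005 bp upstream of the early response gene *Ier5* is described below with its list.

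Falls of the ratio were found at *Smyd4*, *Rps6ka5*, *Emilin1*, *Ogg1* and *Vamp3*. The nearest peak of *Smyd4* had 1639, 1468 and 1754 in control and 1754, 1627 and 1641 in sKO libraries, which overlapped, so that the ratio fell by as much as the distal peak (log2 change of the ratio -4.61 ± 0.19 SE, limma, adjusted p = 5e-08). Upstream of *Rps6ka5*, the gene of the kinase MSK1 (chr12:100734640-100736097, intergenic), the distal peak had 356, 350 and 418 against 105, 100 and 84 and the nearest peak 4318, 3825 and 4851 against 4975, 4522 and 4526 (-2.07 ± 0.10, adjusted p = 1.8e-07). *Emilin1*, which encodes an elastic fibre glycoprotein, had an exonic distal peak (chr5:30917129-30917327) that fell from 253, 168 and 163 to 21, 19 and 28, while its nearest peak rose from 1682, 1545 and 1695 to 2434, 2142 and 2320 (-3.52 ± 0.19, adjusted p = 2.7e-07). This was one of 123 pairs in which both peaks were called in opposite directions, out of 760 with both called. The distal peak of the DNA repair gene *Ogg1* (chr6:113318847-113319460, 7818 bp upstream, over an exon) had 186, 215 and 219 against 58, 45 and 45. That of the vesicle SNARE gene *Vamp3* (chr4:151067683-151068462, 10110 bp upstream, intronic) had 126, 172 and 195 against 28, 22 and 18. Both peaks lay upstream of the start site used, so that the exon and the intron are not those of the assigned gene. The nearest peaks of both genes overlapped between genotypes, with 4105, 3761 and 4830 against 4772, 4229 and 4402 at *Ogg1* and 2440, 2272 and 2664 against 2720, 2660 and 2463 at *Vamp3*.

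For opposite movement of distal and nearest peak, 3 pairs of each direction were taken, those in which the weaker of both changes had the smallest p, and they lay at 5 genes. At the adenylate kinase gene *Ak1* the distal peak rose from 64, 85 and 85 to 205, 240 and 225 and the nearest peak fell from 153, 133 and 154 to 49, 48 and 77 (log2 change of the ratio 2.87 ± 0.25 SE, limma, adjusted p = 5.7e-06). The distal peak of *Ak1* was 89 bp from another start of the gene and the nearest peak 3387 bp from the start site used, so that neither peak lay at the start site used for the distance. An intronic peak of *Filip1l*, a filamin-interacting protein gene (chr16:57362161-57363549), had 675, 646 and 786 against 1171, 1062 and 1026, with 570, 554 and 461 against 329, 267 and 267 at the peak 137 bp from the start site (1.51 ± 0.15, adjusted p = 1.3e-05). For the predicted gene *Gm11214* 1 of its 2 distal peaks had 247, 173 and 305 against 513, 495 and 458 and the nearest peak 89, 75 and 70 against 44, 30 and 35, whereas its other distal peak moved with the nearest peak (log2 change -1.91). In the other direction, both upstream peaks of *Mycbpap* fell, from 85, 80 and 87 to 26, 19 and 34 and from 690, 611 and 536 to 366, 273 and 312, while the nearest peak rose from 370, 338 and 395 to 508, 625 and 614. The peak upstream of *1700003F12Rik* fell from 89, 82 and 89 to 21, 25 and 25, and the nearest peak rose from 136, 125 and 127 to 266, 244 and 261 (-2.82 ± 0.22, adjusted p = 2.5e-06). The plot of 10 genes sets both peaks side by side.

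**Figure D3:**
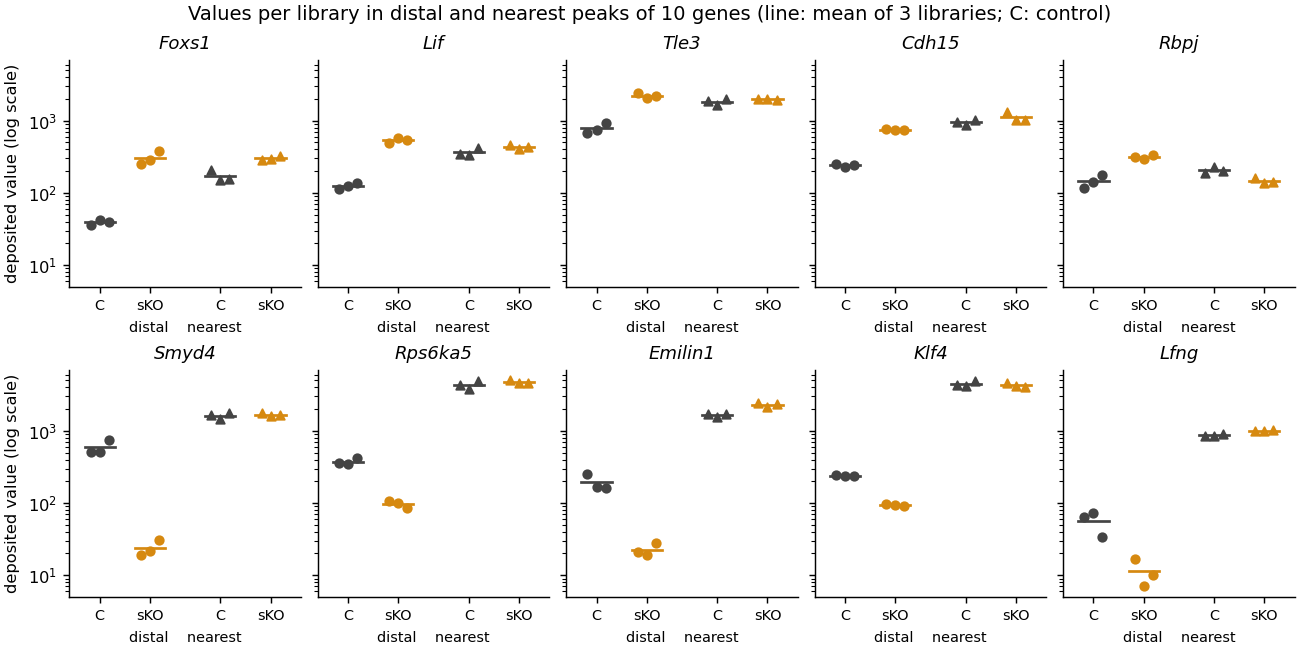
Deposited value per library (log axis) in the distal peak (circles, left) and the nearest peak (triangles, right) of 10 genes, with control in black, Taf4a sKO in orange and a line at the mean of 3 libraries. The distal peaks of the upper row were higher and those of the lower row lower in sKO MuSCs, while each nearest peak had a smaller log2 change than the distal peak of its gene.

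Motif letters in the central 300 bp differed between higher and lower distal peaks, as they did between higher and lower peaks of the whole table. The AP-1 letters TGANTCA, searched on both strands like all motifs here, were found in 33.5% of higher, 15.9% of lower and 18.6% of uncalled distal peaks, against 16608 of all 75412 peaks. With C or G as the middle base, as in the classical AP-1 site, the letters were in 623 of 2223 higher, 146 of 1221 lower and 732 of 4916 uncalled distal peaks, and with A or T in 7.96%, 4.75% and 4.48%. E-box letters CAGCTG, the form preferred by myogenic bHLH factors, had the reverse order, with 26.2% of higher, 44.1% of lower and 29.1% of uncalled distal peaks (29.1% of all peaks). Over all called peaks of the table, AP-1 letters were in 32.1% of higher and 18.9% of lower peaks and E-box letters in 26.1% and 43.2%, so that the pattern is not particular to distal peaks. Similar differences were seen for peaks called on the ratio, where AP-1 letters were in 33.0% of higher and 16.6% of lower and E-box letters in 25.5% of higher and 40.5% of lower ratios.

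The other motifs varied less. The NF-Y letters CCAAT were in 33.5%, 29.1% and 31.0% of higher, lower and uncalled distal peaks (32.2% of all peaks) and the TEAD letters GGAATG in 22.4%, 18.8% and 18.4% (19.0%). The Sp/Klf letters GGGCGG were in 14.2%, 12.8% and 20.8% (15106 of 75412 peaks, and 64.0% of promoter peaks). A match of such short letters is a description of the sequence and does not show binding, and short motifs overlap with base composition. Median GC content was 51.3% in both higher and lower distal peaks and 52.0% in uncalled ones, but higher peaks were wider (593 bp against 457 bp) and of higher mean value (276 against 116). That mean includes the sKO libraries that enter the call, and the median control value was 205 against 148.

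Within the 4 signal classes the motif shares had the same order. AP-1 letters were in 39.8%, 31.8%, 33.0% and 32.1% of the higher distal peaks from the lowest to the highest class, and in 17.0%, 14.8%, 15.3% and 16.0% of the lower ones. E-box letters were in 28.5%, 22.4%, 27.0% and 27.2% of higher and in 40.4%, 42.5%, 52.1% and 46.2% of lower peaks. Seen from the motif, 1330 distal peaks with AP-1 but no E-box letters were 43.2% higher and 8.27% lower (median log2 change 0.36), and 2032 with E-box but no AP-1 letters were 20.3% higher and 22.3% lower (median -0.05). Peaks with both (522) had 32.6% and 16.1%, and peaks with neither (4476) 23.8% and 12.8%. Under the other scalings the median of AP-1 peaks was 0.19, 0.16 and 0.17 against -0.09, -0.13 and -0.11 without AP-1 letters, so that AP-1 peaks stood above the others under each scaling. By position, AP-1 letters were in 36.4% of higher and 19.2% of lower intronic and in 32.9% of higher and 15.8% of lower intergenic distal peaks, and E-box letters in 26.2% and 42.3% and in 25.3% and 45.9%.

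**Figure D4:**
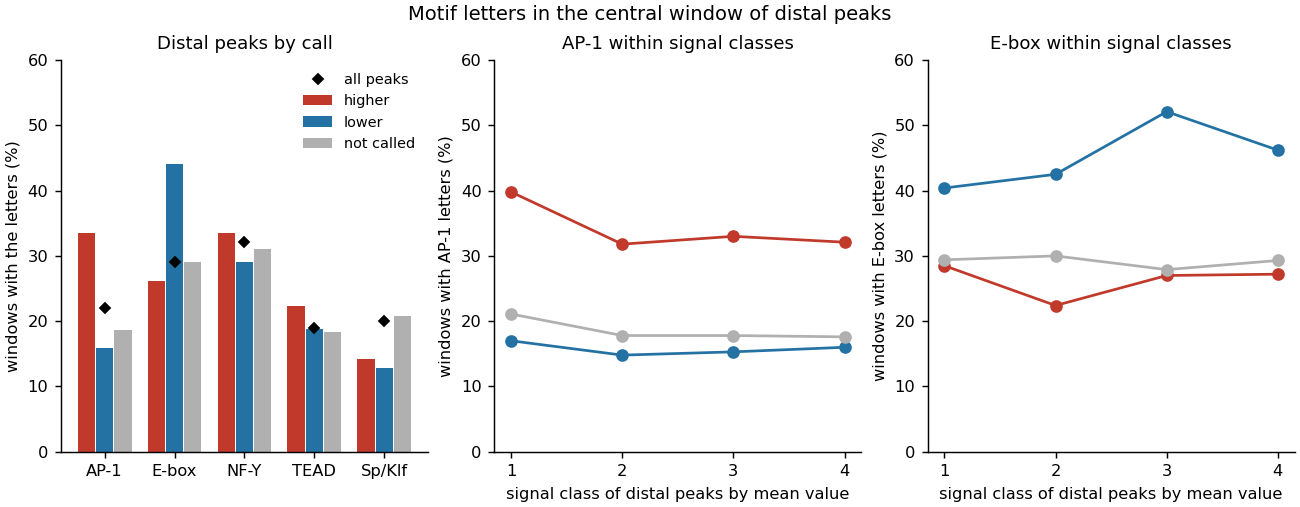
Left: share of distal peaks (%, y axis) whose central 300 bp hold the letters of 5 motifs, for higher, lower and uncalled peaks (bars) and for all peaks (diamonds). Middle and right: shares with AP-1 and E-box letters within 4 classes of distal peaks by mean value (x axis, 1 lowest); AP-1 is most frequent among higher peaks (31.8% to 39.8%) and E-box among lower peaks (40.4% to 52.1%) in each class.

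Distal peaks of myogenic regulators and genes of quiescent MuSCs were examined as the first of 9 gene lists. This list had 68 distal peaks at 31 of 41 genes, of which 25 (36.8%) were higher and 8 (11.8%) lower, with a median log2 change of 0.18. Each list is to be read against all peaks of the table, of which 28.0% were higher and 13.9% lower with a median of 0.11, and against all ratios, of which 23.5% were higher and 19.9% lower. An intronic peak of *Cdh15*, the gene of M-cadherin (chr8:122853356-122853672), had 253, 226 and 244 in control and 776, 745 and 737 in sKO libraries (1.64 ± 0.13 SE, limma, adjusted p = 2.5e-09). In the syndecan gene *Sdc3* an intronic peak (chr4:130797223-130797866) rose from 192, 164 and 187 to 466, 418 and 507 (1.35 ± 0.14). Both rose against their nearest peaks, by 1.41 and 1.13 on the log2 scale. *Sdc3* had 4 distal peaks, and another of them (chr4:130784837-130785119) was lower, with 47, 32 and 49 against 21, 19 and 26 (-0.91 ± 0.30, limma, adjusted p = 0.016). Among the falls, an intronic peak of *Tek*, the angiopoietin receptor gene that also stands in the endothelial marker list, had 156, 141 and 107 against 65, 33 and 31 (-1.69 ± 0.26). The other distal peak of *Tek* (chr4:94746225-94746804) went the other way, from 225, 215 and 239 to 407, 449 and 410 (0.90 ± 0.14, limma, adjusted p = 1.4e-05). These additional *Sdc3* and *Tek* peaks were chosen after their values were seen. A peak assigned to *Myog*, the gene of the differentiation factor myogenin, lay 7421 bp downstream of its start, over an exon of some annotated gene. It had 322, 314 and 294 against 179, 200 and 231 (-0.61 ± 0.15, adjusted p = 0.0017). The nearest peak of *Myog* fell as well, from 282, 297 and 224 to 160, 143 and 137, so that the ratio was not called (0.24 ± 0.19). Another distal peak of *Myog*, chosen after its values were seen, was not called (301, 324 and 360 against 276, 244 and 271). Its ratio to the same nearest peak was higher (0.54, limma, adjusted p = 0.036). With the other scalings 14 to 19 peaks of this list were lower and 18 to 21 higher.

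Notch pathway genes, whose signalling holds MuSCs in quiescence, had 33 distal peaks at 16 of 25 genes, 11 (33.3%) higher and 6 (18.2%) lower (median 0.22), shares near those of all peaks (28.0% and 13.9%). *Rbpj*, the DNA-binding effector of the pathway, had an upstream intergenic peak (chr5:53457310-53457671) with 117, 142 and 176 in control and 311, 295 and 330 in sKO libraries, whereas its nearest peak fell from 190, 231 and 202 to 160, 137 and 143 (log2 change of the ratio 1.62 ± 0.20 SE, limma, adjusted p = 4.5e-05). *Rbpj* had 5 distal peaks, and another of them (chr5:53460979-53461288) was lower, with 79, 111 and 140 against 57, 74 and 62 (-0.73 ± 0.22, limma, adjusted p = 0.0084). Of the ligand gene *Jag1*, an intronic peak (chr2:137109196-137110161) rose from 729, 730 and 834 to 1246, 1203 and 1307 (0.71 ± 0.11). Peaks of the Fringe glycosyltransferase genes, which modify Notch receptors, went in both directions. Upstream of *Lfng* a weak peak (chr5:140599963-140600314) had 65, 72 and 34 against 17, 7 and 10 (-2.24 ± 0.37, adjusted p = 4e-05), and an exonic peak of *Mfng* (chr15:78763482-78764542) 433, 356 and 363 against 247, 164 and 187 (-0.96 ± 0.16). A stronger *Lfng* peak 3843 bp downstream (chr5:140610769-140611556) was higher, with 586, 536 and 516 against 727, 623 and 714 (0.33 ± 0.12, limma, adjusted p = 0.03), and the second *Mfng* peak was not called (249, 236 and 220 against 232, 195 and 183). The additional *Rbpj*, *Lfng* and *Mfng* peaks were chosen after their values were seen. Rescaled, 6 or 7 of the Notch peaks were higher and 6 to 9 lower.

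Immediate early and AP-1 genes, which are induced when MuSCs are isolated or activated, had 39 distal peaks at 18 of 30 genes. Of these 16 (41.0%) were higher and 5 (12.8%) lower (median 0.25), against 28.0% and 13.9% of all peaks, and 22 of 39 ratios to the nearest peak were higher and 4 lower, against 23.5% and 19.9% of all ratios. Near *Ier5*, 4 distal peaks rose, with the strongest 9005 bp upstream (chr1:155108410-155108871) at 254, 265 and 371 against 755, 789 and 822 (1.43 ± 0.14 SE, limma, adjusted p = 7e-08) and another 5922 bp downstream (chr1:155093303-155094125) at 595, 424 and 490 against 1311, 1148 and 1150 (1.27 ± 0.13). The nearest peak of *Ier5* had 2095, 1905 and 2392 against 2093, 2106 and 2040, with full overlap. *Klf4* and *Egr1*, both transcription factor genes of the early response, had falling distal peaks with 243, 233 and 239 against 97, 95 and 90 (-1.33 ± 0.16, adjusted p = 5.9e-07) and 1116, 816 and 1115 against 495, 544 and 428 (-1.04 ± 0.13, adjusted p = 2.8e-06). Other, weaker distal peaks of *Klf4*, chosen after their values were seen, were not called (log2 changes 0.75 ± 0.35 and 0.54 ± 0.32). The first of them (14, 17 and 41 against 37, 42 and 32) had a higher ratio to the nearest peak (0.80, limma, adjusted p = 0.031). The list therefore held clear changes in both directions, and 15 higher and 10 or 11 lower peaks under the other scalings.

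p53 targets and cell cycle inhibitors had 26 distal peaks at 19 of 27 genes, 11 (42.3%) higher and 1 (3.85%) lower (median 0.14, but -0.01 when scaled by the total, and 10 or 11 higher and 5 or 6 lower under the other scalings). The intergenic peak upstream of *Phlda3*, a p53 target that restrains AKT (chr1:135759682-135760056), had 118, 151 and 191 in control and 466, 506 and 476 in sKO libraries (1.67 ± 0.16 SE, limma, adjusted p = 4.7e-08). Upstream of *Mdm2*, the gene of the ubiquitin ligase of p53 (chr10:117717490-117718647), the values were 436, 433 and 491 against 874, 815 and 875 (0.91 ± 0.12). The nearest peaks of both genes overlapped between genotypes. The only fall was upstream of *Pmaip1*, a pro-apoptotic BH3-only gene, with 379, 347 and 404 against 197, 137 and 223 (-1.04 ± 0.17).

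Extracellular matrix and niche genes had the largest share of rising peaks among the 9 lists. Of 39 distal peaks at 19 of 31 genes, 18 (46.2%) were higher and 2 (5.13%) lower (median 0.47), against 28.0% and 13.9% of all peaks, and under the other scalings 18 were higher and 3 lower with medians of 0.30 to 0.35. An exonic peak downstream of the start of *Timp3*, a metalloproteinase inhibitor gene (chr10:86304508-86304749), had 68, 97 and 106 in control and 255, 277 and 280 in sKO libraries (1.60 ± 0.17 SE, limma, adjusted p = 2.4e-07), and an intronic peak of the laminin gene *Lama5* (chr2:180216037-180216263) 56, 67 and 67 against 157, 145 and 142 (1.22 ± 0.18). Of 38 ratios to the nearest peak, 11 were higher and 6 lower, against 23.5% and 19.9% of all ratios, and their median was 0.03. Falls were seen upstream of *Thbs2*, the gene of thrombospondin-2 (332, 373 and 505 against 255, 151 and 178, log2 change -1.06 ± 0.19), and of *Dag1*, which encodes dystroglycan (2267, 1821 and 1872 against 1621, 1098 and 1183, log2 change -0.62 ± 0.13). Another distal peak of *Thbs2*, chosen after its values were seen, was not called (200, 249 and 398 against 414, 206 and 246, log2 change 0.03 ± 0.33). Its ratio to the nearest peak was higher (0.64, limma, adjusted p = 0.022). The mesenchymal marker sums given above, which share *Col1a1* and *Col3a1* with this list, were also higher in all sKO libraries, and their part in the list's change was not tested.

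The 4 remaining lists had fewer calls. NSL complex, lamin and heterochromatin genes had 17 distal peaks at 10 of 30 genes, 3 (17.6%) higher and 2 (11.8%) lower (median 0.04, and -0.05 to -0.10 under the other scalings, with 3 higher and 3, 4 or 6 lower). Intronic peaks of *Phf20*, a subunit gene of the NSL acetyltransferase complex (232, 277 and 293 against 473, 419 and 452, log2 change 0.75 ± 0.14 SE), and of the lamin gene *Lmnb1* (156, 167 and 165 against 251, 297 and 295, log2 change 0.78 ± 0.15) were higher. Another distal peak of *Lmnb1*, chosen after its values were seen, was not called (270, 246 and 294 against 250, 254 and 263). Its ratio to the nearest peak was lower (-0.27, limma, adjusted p = 0.024). An intronic peak of *Lmnb2* (636, 738 and 710 against 422, 207 and 326, log2 change -1.18 ± 0.21) and 1 of 2 distal peaks assigned to *Kansl2*, the gene of another NSL subunit (150, 133 and 161 against 105, 100 and 72, log2 change -0.69 ± 0.18, limma, adjusted p = 0.0043), were lower. The other *Kansl2* peak, chosen after its values were seen, had values from 83 to 114 in control and from 114 to 135 in sKO libraries and was not called (0.32 ± 0.18, adjusted p = 0.17). The lower *Kansl2* peak was 7053 bp downstream of the start site of the gene and 729 bp from another annotated transcript start, and the nearest peak of *Kansl2* had 3081, 2741 and 3416 in control and 3485, 3276 and 3320 in sKO libraries, with overlap. TFIID and NF-Y genes had only 6 distal peaks, of which the upstream *Taf4a* peak was the 1 that changed (median -0.02, and 1 more was lower under each other scaling).

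Sarcomere and differentiation genes had 21 distal peaks at 17 of 29 genes, 2 (9.52%) higher and 4 (19.0%) lower (median 0.05, and -0.06 to -0.10 when rescaled, with 2 higher and 4 to 6 lower). Intronic peaks assigned to the myosin light chain gene *Myl1* (chr1:66940829-66941396) and to the actin gene *Acta1* (chr8:123891169-123891940) fell, from 368, 315 and 377 to 186, 170 and 183 (log2 change -0.97 ± 0.14 SE, limma, adjusted p = 1.1e-05) and from 279, 317 and 280 to 205, 169 and 178 (-0.67 ± 0.15). Neither gene had a nearer peak to set against these 2 peaks. Peaks assigned to *Tnnc1*, the slow troponin C gene (538, 533 and 740 against 866, 867 and 840), and *Neb*, the nebulin gene (99, 95 and 126 against 194, 160 and 154), rose by 0.52 ± 0.13 and 0.67 ± 0.17 on the log2 scale. Heat shock and stress genes had 15 distal peaks at 9 of 15 genes, 5 (33.3%) higher and 1 (6.67%) lower (median 0.08, and -0.03 to -0.07 when rescaled, with 3 lower under each other scaling and 3 higher under quantile normalization), against 28.0% and 13.9% of all peaks. Intronic peaks of *Hspb8* and *Bag3*, partners in chaperone-assisted autophagy, rose from 49, 55 and 68 to 211, 225 and 236 (1.96 ± 0.18, adjusted p = 2.2e-08) and from 229, 230 and 338 to 518, 586 and 510 (1.04 ± 0.15). At *Hspb8* the nearest peak rose too, from 443, 455 and 601 to 1045, 970 and 1031. An intronic peak assigned to *Hspa8*, the constitutive HSP70 gene, had 231, 201 and 163 against 140, 122 and 121 (-0.62 ± 0.17, adjusted p = 0.0045).

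**Figure D5:**
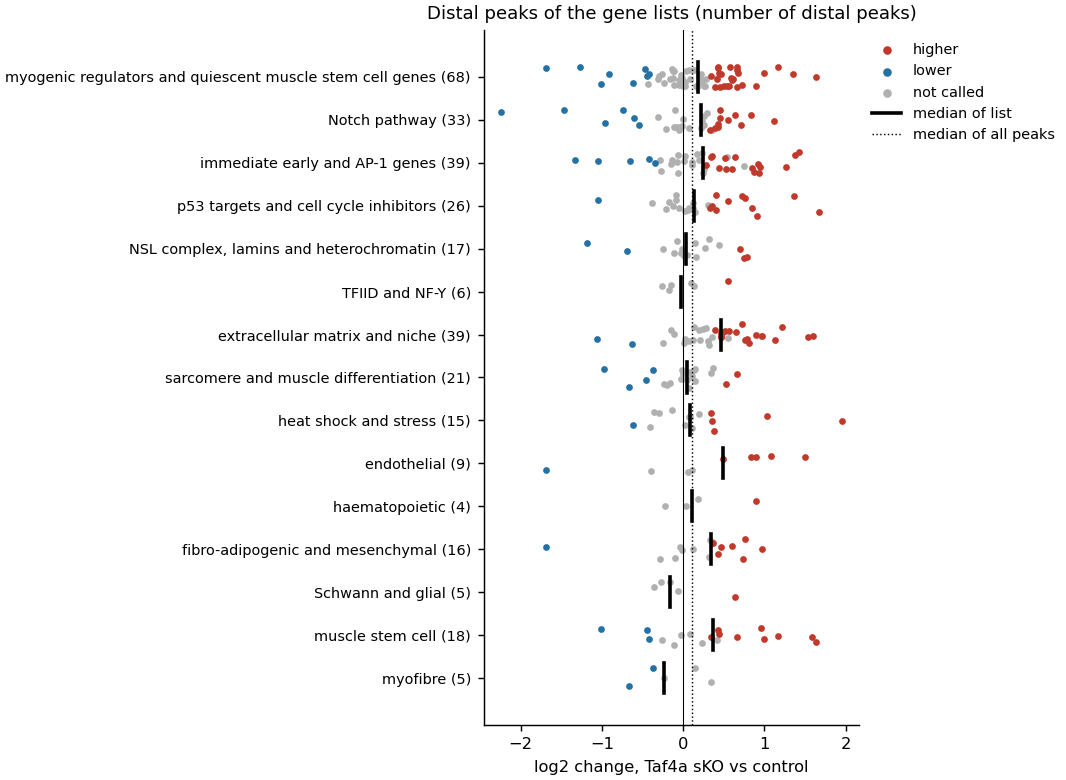
Log2 change (x axis, Taf4a sKO against control) of every tested distal peak of 9 gene lists and 6 marker lists (y axis, number of distal peaks in brackets), coloured by call, with the median of each list as a bar and the median of all peaks (0.11) as a dotted line. The extracellular matrix list (18 higher, 2 lower) lies furthest to the right among the 9 gene lists; genes such as Tek, Col1a1 and Acta1 appear in more than 1 list.

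Calls at genes with several distal peaks were counted next. One distal peak was found at 4111 genes and at least 2 at 1803 genes, of which 185 had all distal peaks higher, 67 had all lower and 106 had at least 1 higher and 1 lower. The largest number was 6, at *Efhd2*, *Bcl9l*, *Rara* and *Smug1*. At *Efhd2*, which encodes a calcium-binding protein, 5 of 6 distal peaks were higher, among them a peak 3693 bp downstream (chr4:141870867-141871587) with 457, 399 and 610 in control and 1078, 952 and 1009 in sKO libraries (1.07 ± 0.14 SE, limma, adjusted p = 3e-06). The 1 without a call, 7499 bp downstream, had 888, 786 and 761 against 937, 774 and 672. *Bcl9l*, a coactivator gene of Wnt signalling, and *Rara*, the gene of retinoic acid receptor alpha, each had 3 higher peaks and *Smug1*, a DNA glycosylase gene, 2, with none lower at any of these 3 genes.

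The strongest distal peak in control MuSCs was near *Klf9*, a Krüppel-like factor gene. It lay 5944 bp upstream of the start site used and 382 bp from another annotated transcript start, and had 9668, 8761 and 11507 in control and 11575, 9744 and 9456 in sKO libraries. The genotypes overlapped (log2 change 0.04 ± 0.11 SE, limma, adjusted p = 0.78), as they did at the nearest peak with 5167, 4647 and 5814 against 5601, 5369 and 5134. Distal peaks without a nearer peak of their gene (1316) had 19.5% higher and 17.2% lower with a median log2 change of 0.00, beside 27.9% higher and 14.1% lower for those with a nearer peak.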

How the data were processed

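ATAC-seq libraries of control and *Taf4a* sKO MuSCs (3 each, grouped by the genotype label) were analysed. The deposited score is a read count per peak that the authors normalized for sequencing depth and rounded. Before that, the authors trimmed reads with Trimmomatic 0.39, aligned them to mm10 with STAR 2.7.11b, removed duplicates with Picard 3.1.1 as well as spliced, multi-mapping, ribosomal and mitochondrial reads, called peaks with MACS, unified them and counted with featureCounts. A Tn5 shift is not given in the sources used here. Summed values per library ranged from 35226223 to 44311913, and 3 libraries per genotype limit the precision. Whether the 3 libraries of a genotype came from separate mice is described only as biological replicates.

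Because the values are not raw counts, log2(value + 1) was fitted with limma 3.58.1 (R 4.3.3, trend and robust moderation) over the 75384 peaks with a mean above 10, with Benjamini-Hochberg adjustment over all of them. The log2 ratio of a peak to the nearest peak of its gene was fitted likewise over 13874 pairs. The fits were tested on simulated data. Sums per library were compared by exact permutation tests (SciPy 1.17.1). Positions came from the deposited table, features from GENCODE vM21 (99.77% of the genes matched) and sequence from GRCm38. The deposited distance has no sign, and the side was computed from strand. No per-sample column was left unused.

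The members, gene lists, marker lists, motifs and tests were chosen with earlier results of these data known. Peaks named are the 5 higher and 5 lower with the smallest p and no overlap of genotypes, the same 5 and 5 for the ratio, the 3 and 3 clearest opposite pairs, the highest control peak, up to 2 peaks per direction of each gene list (lists: myogenic and quiescence, Notch, immediate early and AP-1, p53 and cell cycle inhibitors, NSL, lamins and heterochromatin, TFIID and NF-Y, extracellular matrix, sarcomere, heat shock) and the genes with most distal peaks. The middle base of the AP-1 letters was separated after the data were seen. Alternatives changed the filter, pseudocount, scaling, minimum distance, moderation, replicate block, fold threshold and nearest peak, or left out 1 library.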

Additional observations from a re-analysis of the deposited data

How the results depend on the processing

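Of 115 values of the 8 main results under the alternatives, 107 stayed within 1.5 times the count or within 1 SD between replicates for a median. Among them, the ratio results under median-of-ratios factors and totals could hardly move, because a common factor per library cancels. The exceptions are these. The number of lower distal peaks (1221) was 2008 with median-of-ratios factors, 2271 with totals over all peaks and 2209 with quantile normalization, and the median log2 change of distal peaks (0.076) turned to -0.037, -0.072 and -0.065. At a log2 ratio beyond 1.5, 106 distal peaks were gained and 167 lost. With 1 library left out, the counts ranged from 1711 to 2979 for higher and 974 to 1187 for lower distal peaks, 413 to 691 gained, 381 to 482 lost, 1383 to 1766 higher and 1134 to 1375 lower ratios, and the medians from 0.021 to 0.143 and from 0.000 to 0.024. Leaving out control replicate 3 gave the 2979 higher and 691 gained peaks, and leaving out control replicate 2 the 1711 higher peaks. Samples share only a replicate number: residuals of same-numbered libraries correlated at 0.110, -0.118 and -0.0289, and of the sKO libraries only replicate 1 correlated best with the control of its own number. The fit with a replicate block gave 2339 higher and 1299 lower distal peaks and 1708 and 1453 ratios. Of 1177 values of named peaks, 1168 kept direction and call, 0 reversed and 9 lost the call when 1 library was left out, all on the ratio, at *Tm4sf1*, *Mfng* and *Thbs2* (adjusted p 0.052 to 0.1). Most named peaks had been chosen by their small p in these same data, and a common factor per library cancels in their ratios. The count of kept calls therefore says little about how stable distal peaks are in general.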

Other observations

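Distal peaks of the marker genes, picked for mention after their values were seen, moved in either direction. Downstream of the start of *Egfl7*, an endothelial marker gene, the values were 446, 564 and 648 in control and 1479, 1521 and 1662 in *Taf4a* sKO libraries (limma, adjusted p = 1e-08), and all sKO values lay above all control values. Another distal peak of *Egfl7* had 117, 108 and 105 against 79, 78 and 93 and was not called (log2 change -0.40 ± 0.18, limma, adjusted p = 0.083). Its ratio to the nearest peak was lower (-1.90, limma, adjusted p = 1e-05). At the MuSC marker *Msc*, the gene of musculin, a peak 8300 bp from the start site rose from 108, 104 and 117 to 318, 367 and 314. The peak 7818 bp from the start of *Pax7*, the defining gene of MuSCs, rose from 456, 371 and 530 to 783, 939 and 977 (log2 change 1.00, limma, adjusted p = 4.8e-06). In contrast, a peak of *Calcr*, a receptor gene of quiescent MuSCs, fell from 68, 59 and 68 to 40, 32 and 25, and 1 of the peaks of the mesenchymal marker *Gsn* fell from 197, 175 and 171 to 58, 45 and 66. The other distal peak of *Gsn* was higher, with 718, 700 and 928 against 1039, 976 and 978 (log2 change 0.36, limma, adjusted p = 0.017).

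By chromosome, the share of higher distal peaks was lowest on X (18.8% of 170, with 17.1% lower) and highest on chromosome 6 (34.3% of 440, with 11.8% lower), which was not tested.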
